A study of Mus musculus with 8 samples.

Results

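The 9 genes described here encode components and regulators of the complement system: C1qa, C1s1, C3, C4b, C6, C7, Cfb, Cfi and Masp1. They were chosen by name, as a list of symbols, with earlier results of these data known. All 9 were found among the 16464 genes of the deposited table of normalised read counts. The tissue was the posterior knee joint capsule, the connective tissue at the back of the knee, of wild type C57BL/6 mice aged 10 weeks. The naive group held 4 libraries from mice without a cast, and the cast group held 4 libraries from mice whose knee was immobilised in a cast at 140 degrees for 2 weeks, from 8 weeks of age; the treatment protocol names male mice. The labels do not say whether each library stands for its own mouse; the p-values therefore measure only the spread between libraries, part of which may be technical. The comparison asks how gene expression in the capsule differed after immobility.

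Complement is a cascade of plasma and tissue proteins that marks cells and debris for uptake, draws in leukocytes and can pierce membranes. The classical pathway starts when C1q binds its target and the attached proteases C1r and C1s cut C4 and C2; the lectin pathway starts with collectins and ficolins carrying the MASP proteases; the alternative pathway amplifies C3 cleavage through factor B and factor D. All routes cleave C3, and C5 to C9 then build the membrane attack complex. Factor I inactivates C3b and C4b with the help of cofactors. The liver makes most circulating complement, while fibroblasts, fat cells and macrophages make several components locally.

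Recovered whole reads per library ran from 5956148 to 7381255 except in naive replicate 4, which had 1503880. That library also stood apart across genes, with a correlation of 0.882 to 0.897 with the other naive libraries and a deviation from its group that rose with transcript GC content (Spearman rho 0.646, against -0.61 to -0.268 in the other naive libraries). It gave the highest naive value of 6 of the 9 complement genes, and cast replicate 1 gave the lowest cast value of 5 of 9. Macrophage markers summed to 1996 to 4106 normalised counts in naive and 3630 to 4985 in cast libraries, and 1 of 10 was called higher (limma, adjusted p at most 0.05, as below). Fibroblast and capsule markers summed to 28436 to 47011 and 26633 to 44624, with 1 of 12 called higher and 1 lower. Pdgfra, a fibroblast marker, was at 925 to 977 in naive and 998 to 1149 in cast libraries, and Prg4, the lubricin gene of joint lining, at 2391 to 5315 and 1377 to 3127, which fits the labelled tissue. Neutrophil and marrow markers summed to 23.3 to 68.9 in naive and 688 to 6141 in cast libraries, with 8 of 11 called higher, and red cell markers to 1174 to 1773 and 3940 to 19837, with 7 of 7 called higher. Skeletal muscle markers summed to 2007, 1288, 2273 and 92.5 in naive replicates 1 to 4 and to 309, 12.3, 12.8 and 87.5 in cast replicates 1 to 4, with 5 of 10 called lower. Fat cell markers summed to 6903 to 9471 and 2218 to 8905, with 4 of 8 called lower. Of these lists the level of muscle genes was also fitted as a covariate, with the values given beside the genes. That level was highest in naive replicates 1 to 3, so it largely follows the group. Among the naive libraries it sets apart replicate 4, the shallow library. Muscle content and the cast therefore cannot be told apart by that fit. The part of the other lists in the complement results was not tested. In bulk tissue more cells of a type and more RNA per cell cannot be told apart. Of 10 hepatocyte markers named, 5 were among the deposited genes. These were at or near 0 throughout, with sums of 0 to 3 in all 8 libraries.

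Of the 9 complement genes, 3 were higher in cast capsules, 0 were lower and 6 did not pass the test. At an unadjusted p under 0.05 limma gave 5 higher and 0 lower, against 14.4% and 12.2% of all genes tested. edgeR and DESeq2 also called 0 lower, against 6.2% and 8.54% of all genes. The 3 were Cfi, the gene of factor I, C6, a building block of the membrane attack complex, and Masp1, a protease of the lectin pathway. In the same fit 6.51% of all 15120 genes tested were called higher and 5.46% lower (limma on log2 of the value plus 1, Benjamini-Hochberg adjusted p at most 0.05 over all genes). The median log2 fold change was 0.79 over the 9 genes and 0.07 over all genes tested. The 9 genes were chosen with earlier results of these data known. The values over all genes are therefore given as a description and test nothing about the list. The 3 called genes were the 3 with the lowest naive levels per length, and the abundant components C4b, C3 and C1qa did not pass. Fold changes below, other than those of edgeR and DESeq2 and of the alternatives that change the pseudocount, are on the log2 scale of the value plus 1, which understates the change of genes with low values.

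**Figure D1:**
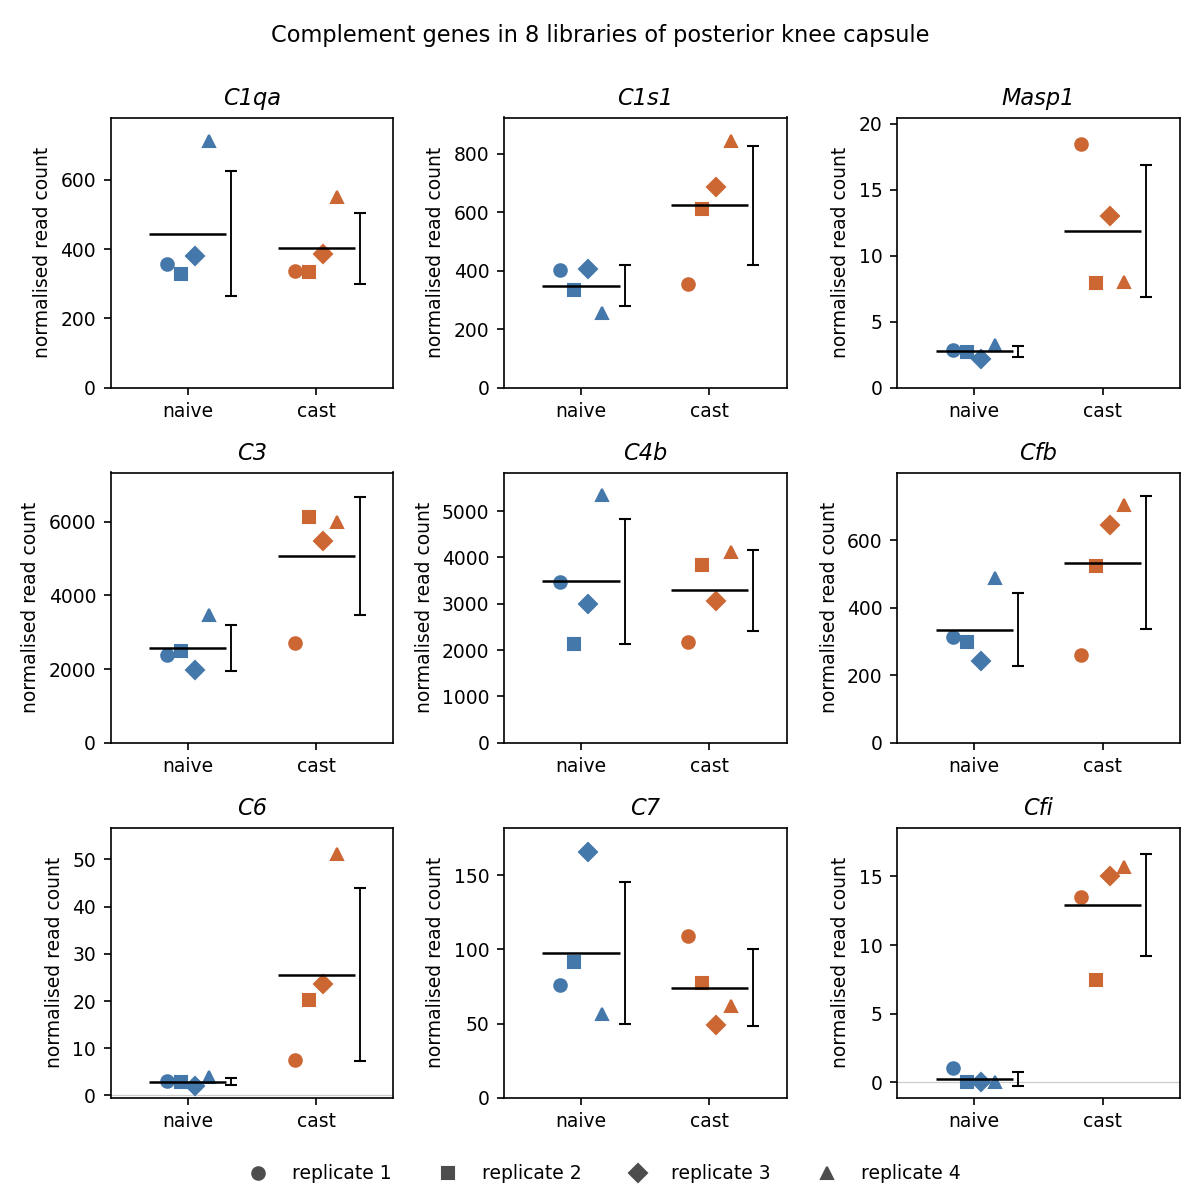
Each panel plots the normalised read count (vertical axis, linear from 0) of 1 complement gene in the 4 naive and 4 cast libraries, with symbols for replicate number, a line at the group mean and a bar of ± 1 SD beside it. The cast points of Cfi, C6 and Masp1 all lie above the naive points, while those of the other 6 genes overlap.

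Recognition was represented by C1qa, which encodes the A chain of C1q (GRCm38 chr4:136895917-136898803, minus strand, 3 exons). Its normalised counts were 357, 328, 380 and 713 in naive replicates 1 to 4 and 336, 335, 387 and 550 in cast replicates 1 to 4. The groups overlapped, and replicate 4 was the highest library in each. The means were 445 ± 180 and 402 ± 102 (SD, n = 4 each), a log2 fold change of -0.10 ± 0.28 (SE) with a limma adjusted p of 0.853. Its 95% interval before adjustment was -0.73 to 0.53. Without naive replicate 4 the value was 0.15, so even its sign rested on that library; C1qa has the highest transcript GC content of the 9 genes, 59.5%. Macrophages are the main source of C1q. Their summed markers were 3020, 1996, 2955 and 4106 in naive and 3875, 3630, 3895 and 4985 in cast replicates 1 to 4. The sum was likewise highest in replicate 4, but single markers did not all follow it. In naive replicate 4, Mrc1, Adgre1 and Mertk were at their lowest of the naive libraries and the other macrophage markers at their highest. In cast replicate 4, Cd68, Mertk and Aif1 were not at their highest of the cast libraries. The part of macrophages in the C1qa values was not tested. The partner chains were likewise highest in replicate 4 of each group: C1qb was at 266, 227, 257 and 568 in naive and 308, 234, 303 and 440 in cast libraries, and C1qc at 407, 314, 363 and 633 against 313, 331, 389 and 561. Per length, C1qa stood at 1.31 to 1.55 times C1qb in naive and 1.14 to 1.5 times in cast libraries.

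Of the initiating proteases, C1s1 encodes the C1s subunit that cuts C4 and C2 (chr6:124530345-124542359, minus strand, 12 exons). C1s1 was at 402, 335, 406 and 254 normalised counts in naive and 356, 611, 686 and 843 in cast replicates 1 to 4. Cast replicates 2 to 4 lay above every naive library, and cast replicate 1 lay within the naive range. The means were 349 ± 71.7 and 624 ± 203 (SD, n = 4 each), a log2 fold change of 0.79 ± 0.28 (SE) that missed the threshold (limma adjusted p = 0.106). Without cast replicate 1 the fold change was 1.04 with a limma adjusted p of 0.0271, so the limma call depended on this library. DESeq2 called C1s1 higher with all libraries (0.83, DESeq2 adjusted p = 0.0273). C1ra, the partner protease in the same complex and of a similar level per length, had 309, 273, 325 and 470 in naive and 364, 684, 729 and 953 in cast libraries (log2 fold change 0.93, limma adjusted p = 0.079; 1.21 and 0.0179 without cast replicate 1; 0.29 and 0.607 with the muscle covariate). C1ra was called higher with all libraries by edgeR (edgeR adjusted p = 0.0492) and by DESeq2 (0.98, DESeq2 adjusted p = 0.0139). Limma called C1ra higher after removal of each library's trend with GC content (0.95, limma adjusted p = 0.043). Without naive replicate 4 limma also called C1ra higher (1.09, limma adjusted p = 0.03). Reads of C1s1 are shared with its copy C1s2 over 2.86% of its 150-base windows. The exons of C1s1 overlap an antisense transcript, Gm16567, which counting without strand would not separate.

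Masp1 encodes the lectin pathway protease MASP-1 and, by other splicing, MASP-3 and MAp44, which gene counts do not separate (chr16:23449417-23520815, minus strand, 16 exons in the longest coding transcript). Its normalised counts were 2.86, 2.74, 2.15 and 3.23 in naive and 18.5, 7.94, 13 and 8 in cast replicates 1 to 4. Every cast library was above every naive library, and cast replicate 1, which was the lowest cast library for 5 of the 9 genes, was the highest for Masp1. All 4 cast libraries lay above all 4 naive libraries in 11.1% of genes tested, and below them in 9.39%. The means were 2.75 ± 0.45 and 11.8 ± 5 (SD, n = 4 each), a log2 fold change of 1.71 ± 0.28 (SE; limma adjusted p = 0.00573; two-sided exact permutation p = 0.0286, the smallest 4 against 4 allows). These values rested on 54 naive and 320 cast reads, a ratio at equal scaling of 4.39 (exact 95% interval 3.28 to 5.97, counting error only). C1s2, a copy of the C1s gene, was also called higher, from 1 naive read to 29 cast reads (ratio 21.5, interval 3.56 to 878). Its log2 fold change was 0.98 (limma adjusted p = 0.0205). C1s2 reached the mean of 0.5 needed for testing only through its cast libraries.

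C3, the protein on which all pathways meet, had the highest mean level per length of the 9 genes in cast capsules (chr17:57203970-57228136, minus strand, 41 exons). Its normalised counts were 2375, 2480, 1981 and 3455 in naive and 2700, 6142, 5474 and 5990 in cast replicates 1 to 4. Cast replicates 2 to 4 lay above all naive libraries, and cast replicate 1 lay below naive replicate 4. The means were 2573 ± 626 and 5076 ± 1610 (SD, n = 4 each), a log2 fold change of 0.94 ± 0.35 (SE; limma adjusted p = 0.121; interval 0.15 to 1.72 before adjustment). Without cast replicate 1 the fold change was 1.22 with a limma adjusted p of 0.0294. With the level of skeletal muscle genes as a covariate, which largely follows the group, it was 0.17 with a limma adjusted p of 0.812. The part of muscle in the C3 values cannot be told apart from that of the cast. Fat cells are a known source of C3, and the fat marker sum was 2218 in cast replicate 1 against 4408 to 8905 in the other cast libraries; its part in the C3 values was not tested.

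C4b, the mouse C4 gene of the classical and lectin convertase (chr17:34728380-34743882, minus strand, 41 exons), was at 3468, 2131, 2986 and 5342 in naive and 2172, 3829, 3053 and 4120 in cast replicates 1 to 4. The groups covered much the same range. The means were 3482 ± 1358 and 3294 ± 873 (SD, n = 4 each), with a log2 fold change of -0.04 ± 0.36 (SE; limma adjusted p = 0.951; interval -0.84 to 0.76). Its copy C4a shares 8.26% of its 150-base windows and was at 0.273 to 1.87 over all libraries. The ratio of C3 to C4b per length, in which the scaling of a library cancels, was 0.717, 1.22, 0.695 and 0.677 in naive and 1.3, 1.68, 1.88 and 1.52 in cast replicates 1 to 4. The groups did not overlap in this ratio, which was chosen after the values were seen and is given as a description.

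Cfb encodes factor B, the protease subunit of the alternative convertase, in the same region of chromosome 17 as C4b (chr17:34856374-34862518, minus strand, 18 exons). It was at 314, 297, 241 and 488 in naive and 259, 524, 643 and 704 in cast replicates 1 to 4. Cast replicate 1 was again inside the naive range, with the other 3 cast libraries above it. The log2 fold change was 0.62 ± 0.34 (SE; means 335 ± 107 and 532 ± 197, SD, n = 4 each; limma adjusted p = 0.284). The predicted gene Gm20547 overlaps Cfb on the same strand and shares 80.7% of its 150-base windows, so the value of Cfb may depend on how the authors split such reads; Gm20547 is not analysed here. Factor D, the enzyme that cuts factor B, is made mainly by fat cells. Its gene Cfd had the highest level per length of the convertase list and was at 2775, 3327, 3152 and 6572 in naive and 636, 2224, 1852 and 4005 in cast libraries, and did not pass the test (log2 fold change -1.05, limma adjusted p = 0.251). Cfd per length was 26.4, 33.5, 39 and 40.2 times Cfb in naive and 7.33, 12.7, 8.59 and 17 times in cast replicates 1 to 4, again a ratio chosen after the values were seen.

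Of the terminal components, C6 and C7 lie on chromosome 15, on opposite strands and tail to tail, with 173794 bases between them (C6 at chr15:4727175-4814967, plus strand, 16 exons; C7 at chr15:4988762-5063740, minus strand, 18 exons). Their promoters are shown because these neighbours, whose products join the same complex, had different values in cast capsules. The sequences are RefSeq's, build GRCm38.p6, and run 5′ to 3′ on the strand of the gene; capitals mark letters that match 1 of the motifs searched.
C6 (chr15:4726960-4727174, plus strand): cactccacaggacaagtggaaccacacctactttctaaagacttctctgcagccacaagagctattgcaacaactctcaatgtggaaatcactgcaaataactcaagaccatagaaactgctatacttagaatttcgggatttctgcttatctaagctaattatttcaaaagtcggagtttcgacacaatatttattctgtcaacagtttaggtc
C7 (chr15:5063774-5064023, minus strand): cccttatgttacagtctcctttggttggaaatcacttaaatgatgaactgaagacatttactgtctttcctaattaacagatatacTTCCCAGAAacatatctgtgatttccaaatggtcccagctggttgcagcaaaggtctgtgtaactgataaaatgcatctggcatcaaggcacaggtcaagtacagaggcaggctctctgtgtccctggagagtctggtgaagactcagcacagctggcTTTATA

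The stretch printed for C6 holds only the 215 bases that lie before both the RefSeq start and the start in GENCODE, a second annotation. That for C7 holds all 250 bases searched. The printed stretches have 38.6% GC for C6 and 43.2% for C7. Motifs were searched on both strands over the 250 bases before the RefSeq start. The TATA box was taken as TATAAA, the AP-1 motif as TGANTCA, the STAT motif as TTCNNNGAA and the C/EBP-like motif as TTGCNNAA. The C6 window held no match to any of the 4. The C7 window held TTCCCAGAA, a match to the STAT letters, at 164 to 156 bases before the start, and the TATA box letters on the opposite strand at 6 to 1 bases before it. Among 32851 promoters of this length 7.02% hold the STAT letters and 12.4% the TATA letters. The AP-1 letters are in 6.75% and the C/EBP-like letters in 9.56%. These are matches of letters and not measured binding.

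C6 had 3.16, 2.74, 1.98 and 3.88 normalised counts in naive and 7.42, 20.2, 23.7 and 51.1 in cast replicates 1 to 4. Every cast library was above every naive library, and the cast libraries differed widely among themselves, with cast replicate 1 the lowest and cast replicate 4 the highest. The means were 2.94 ± 0.793 and 25.6 ± 18.4 (SD, n = 4 each), and C6 rose by 2.5 ± 0.47 (SE) on the log2 scale (limma adjusted p = 0.0102; two-sided exact permutation p = 0.0286). The reads were 56 in naive and 737 in cast libraries, a ratio at equal scaling of 9.75 (exact 95% interval 7.43 to 13, counting error only). With the level of skeletal muscle genes as a covariate its fold change was 1.86 and the call was lost (limma adjusted p = 0.0797). As that covariate largely follows the group, muscle and cast cannot be told apart for C6.

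C7, which binds after C6 and lets the complex insert into a membrane, was far more abundant than C6 in naive capsules. It was at 75.9, 91.6, 166 and 56.3 in naive and 109, 77.3, 48.9 and 61.7 in cast replicates 1 to 4. The groups overlapped, with a log2 fold change of -0.34 ± 0.34 (SE; means 97.5 ± 47.9 and 74.2 ± 25.7, SD, n = 4 each; limma adjusted p = 0.582). Per length C7 was 25.8, 35.9, 89.9 and 15.6 times C6 in naive and 15.7, 4.11, 2.22 and 1.3 times in cast replicates 1 to 4. The ratio was lowest in cast replicate 4, and in cast replicate 1 it was at the lower end of the naive range. Hc, the mouse C5 gene from which the terminal complex starts, had 0 naive and 9 cast reads and fell under the filter on low values.

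Cfi encodes factor I, the protease that cuts C3b and C4b, and was the regulator among the 9 genes (chr3:129835884-129875332, plus strand, 14 exons). Its normalised counts were 1.05, 0, 0 and 0 in naive and 13.5, 7.49, 15 and 15.7 in cast replicates 1 to 4. All 7 naive reads came from replicate 1, and each cast library lay well above them. Cfi passed the filter on low values only through its cast libraries. The means were 0.264 ± 0.527 and 12.9 ± 3.74 (SD, n = 4 each), and Cfi rose by 3.49 ± 0.32 (SE) on the log2 scale (limma adjusted p = 0.000356; two-sided exact permutation p = 0.0286). The 7 naive and 360 cast reads gave a ratio at equal scaling of 38.1 (exact 95% interval 18.3 to 95.5, counting error only). The log2 fold change of Cfi was the largest of the 42 complement genes tested.

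Levels were compared between genes as normalised counts per kb of the longest coding transcript. In naive capsules the order of means was C4b 647 ± 252, C3 501 ± 122, C1qa 428 ± 173, Cfb 122 ± 38.7, C1s1 119 ± 24.3, C7 36.4 ± 17.9, C6 1.02 ± 0.276, Masp1 0.514 ± 0.0842 and Cfi 0.127 ± 0.254 (SD, n = 4). The neighbours C4b and C3, C3 and C1qa, Cfb and C1s1, and Masp1 and Cfi overlapped between libraries and were not separated in order. In cast capsules the order was C3 988 ± 313, C4b 612 ± 162, C1qa 387 ± 97.7, C1s1 212 ± 69, Cfb 194 ± 71.7, C7 27.7 ± 9.62, C6 8.91 ± 6.39, Cfi 6.22 ± 1.8 and Masp1 2.21 ± 0.935 (SD, n = 4). There C3 and C4b, C4b and C1qa, C1s1 and Cfb, and C6 and Cfi overlapped. C6, Cfi and Masp1 stayed below C7 and all more abundant components in both groups.

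**Figure D2:**
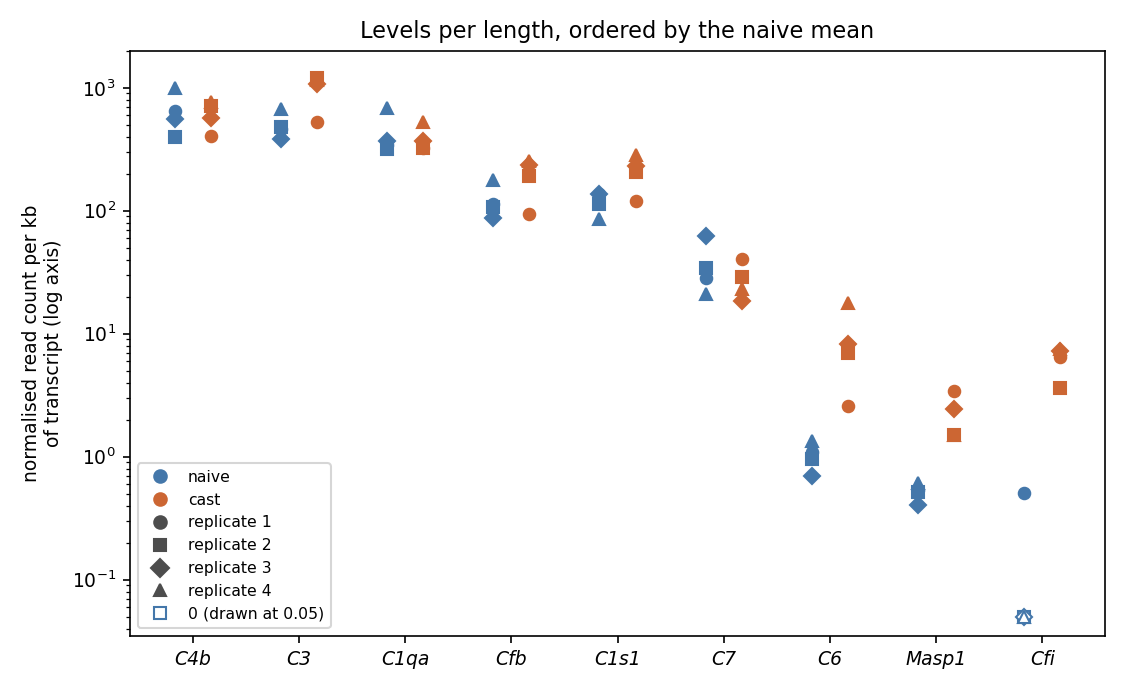
Normalised read count per kb of transcript (vertical log axis) of the 9 complement genes in each of the 8 libraries, in the order of their naive means, with colours for group and symbols for replicate; open symbols at 0.05 stand for 0. The 6 abundant genes overlap between groups, and C6, Masp1 and Cfi have their 4 cast points above their 4 naive points.

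Within the groups the 9 genes did not vary as 1 block. After subtraction of the group means, C3 and Cfb had a Pearson correlation of 0.95 over the 8 libraries, C6 and Cfb 0.89, C3 and C6 0.83, and C1qa and C4b 0.79. C7 ran the other way to Cfb (-0.85), and Masp1 to C1s1 (-0.78), while Cfi had correlations of -0.27 to 0.28 with the other 8. These are descriptions over 8 libraries that share the spread of cast replicate 1 and naive replicate 4. Outside the complement lists the genes most like C6 by this measure among 11324 candidates were Ltc4s (0.989) and Gm2a (0.982). For Cfi they were Cmtr2 (0.932) and Padi2 (0.925), and for Masp1 Myo10 (0.976) and Pi4k2a (0.975).

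Beyond the 9 genes, the wider complement lists named 57 genes, of which 46 were in the table and 42 passed the filter on low values. Of these 42, 7 were higher, 1 was lower and 34 did not pass, where 6.51% of all genes tested were called higher and 5.46% lower. The median log2 fold change was 0.50, and 33 values were above 0, as were 8429 of the 15120 over all genes. These lists too were chosen with earlier results of these data known. Without the 9 genes, 4 of 33 were higher and 1 lower. The count of 7 was 3 without naive replicate 2 and 4 without naive replicate 3 or without cast replicate 2. Over all genes the count higher also fell, from 984 to 569, 565 and 583 without these libraries in turn. The count of 1 lower was 3 without naive replicate 4 and 0 without naive replicate 2 or 3 or without cast replicate 2, 3 or 4. Over all genes the count lower went from 826 to 1283 without naive replicate 4, and to 406 to 574 without those others. By role, 2 of 4 initiating proteases were called higher (Masp1 and C1s2), 1 of 3 terminal components (C6), 2 of 5 fluid-phase regulators (Cfi and Vtn) and 2 of 10 receptors (C5ar2 and C1qbp), with median log2 fold changes of 0.95, 0.11, 1.34 and 0.50. Of 7 convertase components and 6 membrane regulators 0 passed (limma), with medians of 0.62 and 0.33. At an unadjusted p under 0.05 there were 3 and 2 higher, where 14.4% of all genes were. For them edgeR called 0 and 1 higher, and DESeq2 1 and 1, where 7.29% and 9.69% of all genes were. Of the 4 initiating proteases, 4 were higher at an unadjusted p under 0.05, 3 with edgeR and 4 with DESeq2. Terminal components, fluid-phase regulators and receptors had 1, 2 and 3 higher at that unadjusted p. With edgeR, and likewise with DESeq2, they had 1, 2 and 2. Of 7 recognition genes 0 were higher and 1, Colec10, was lower, with a median of -0.09.

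Vtn, the gene of vitronectin, which keeps terminal complexes out of membranes, was at 8.44, 11.8, 10.7 and 20.1 in naive and 39.6, 22.2, 28.8 and 42.7 in cast replicates 1 to 4. The groups did not overlap, and Vtn rose by 1.34 on the log2 scale (limma adjusted p = 0.0185). It lost its call under 4 of 21 alternatives, among them the muscle covariate (1.08, limma adjusted p = 0.104). C5ar2, a receptor of C5a, was at 5.27, 5.49, 3.64 and 5.82 in naive and 9.56, 18.1, 12.1 and 7.07 in cast libraries (log2 fold change 1.01, limma adjusted p = 0.0476). C1qbp, a mitochondrial protein named for its binding to C1q, was at 17.6, 17.4, 26.1 and 16.8 against 26.5, 33.3, 31.6 and 36 (0.70, limma adjusted p = 0.0478). C5ar2 and C1qbp lay close to the threshold, and each lost its call under 11 of 21 alternatives. Colec10, a collectin of the lectin pathway, fell from 27 naive reads to 1 cast read (ratio 0.0274, exact 95% interval 0.00067 to 0.166). Its log2 fold change was -1.32 (limma adjusted p = 0.0246), and it lost its call under 9 of 20 alternatives. Colec10 passed the filter on low values only through its naive libraries.

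The genes with the highest level per length, averaged over all 8 libraries, of 3 other roles did not pass. Among receptors the highest mean per length was that of Vsig4 in naive libraries and that of Itgam in cast libraries. Among membrane regulators it was that of Cd55 in naive and that of Cr1l in cast libraries. Serping1, the gene of the C1 inhibitor, was at 1211, 974, 1491 and 2651 in naive and 1048, 1912, 2059 and 3360 in cast libraries (log2 fold change 0.39, limma adjusted p = 0.593). Cd55, which speeds the decay of convertases, was at 83.2, 92.9, 109 and 16.2 against 62.1, 44.1, 40.8 and 50.3 (-0.32, limma adjusted p = 0.73). Without naive replicate 4, where it was lowest, Cd55 was called lower (-0.94, limma adjusted p = 0.00595), and with the muscle covariate it was called higher (1.38, limma adjusted p = 0.0346), so no direction is drawn for it. Itgam, a chain of complement receptor 3, was at 168, 149, 147 and 200 against 168, 383, 255 and 220 (0.57, limma adjusted p = 0.179).

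**Figure D3:**
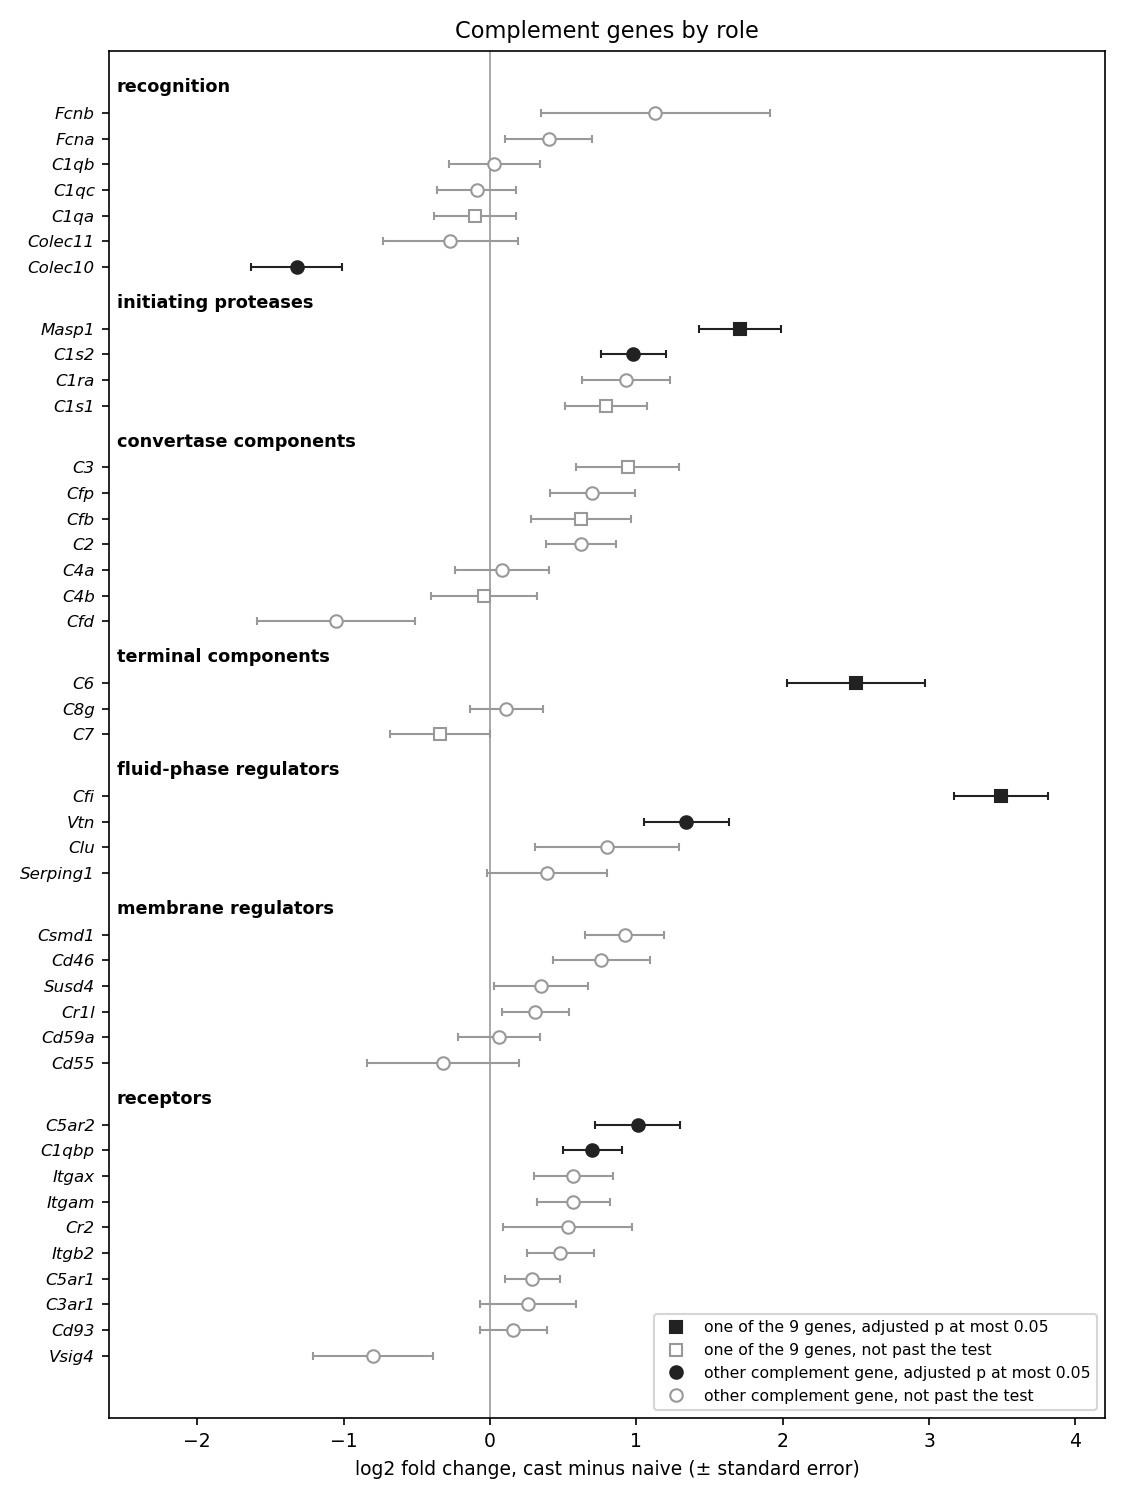
Log2 fold change of cast against naive (horizontal axis, bars ± 1 SE) of 41 of the 42 complement genes tested, grouped by role, with squares for the 9 genes and circles for the others; filled symbols passed the test. Cfi and C6 lie farthest to the right at 3.49 and 2.5, and Colec10 farthest to the left at -1.32.

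Cfi and Masp1 were called higher under all 21 alternatives run, and C6 under 20. Count tests on the recovered reads gave 3 of the 9 genes higher with edgeR, where 7.29% of all genes tested were called higher, and 5 with DESeq2, where 9.69% were. DESeq2 added C3 (log2 fold change 0.97, adjusted p = 0.0109) and C1s1 (0.83, adjusted p = 0.0273). The same 5 were called by limma without cast replicate 1, against 5.09% of all genes. Without naive replicate 4 limma called 3 of the 9, against 9.12% of all genes, and after removal of each library's trend with GC content, an alternative chosen after seeing the data, it again called 3, against 8.52%. With the muscle covariate it called 2, Cfi (3.92, adjusted p = 0.0036) and Masp1 (1.79, adjusted p = 0.0216), against 17.4% of all genes. In that fit C1s1 was at 0.91, C3 at 0.17, Cfb at -0.24, C7 at 0.52, C1qa at -0.65 and C4b at -0.74 (limma adjusted p of 0.155 to 0.812), so Cfb and C7 turned direction. Cfd was at -2.19, Serping1 at -0.47 and Itgam at -0.02 there, and did not pass. The covariate largely follows the group, so the values of that fit do not separate muscle from cast.

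**Figure D4:**
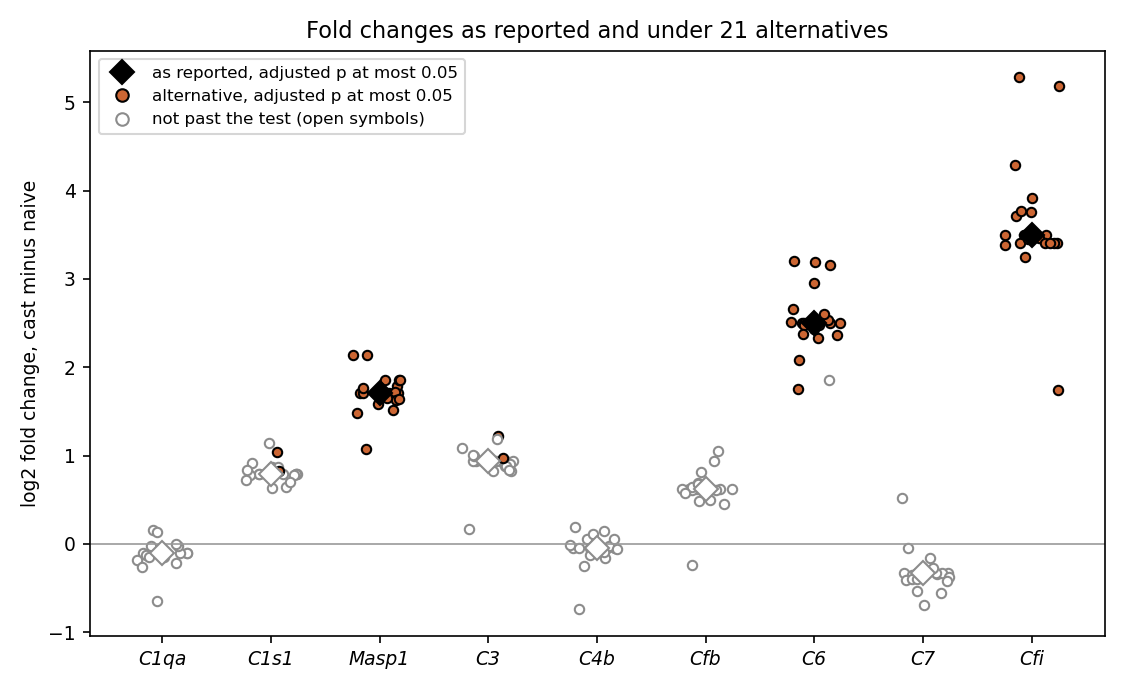
Log2 fold change of cast against naive (vertical axis) of the 9 complement genes as reported (diamonds) and under 21 alternatives (circles), filled where the adjusted p was at most 0.05. Cfi, Masp1 and C6 stay above 1 throughout, C1s1 and C3 have 2 filled circles each, and C1qa, C4b, C7 and Cfb lie on both sides of 0.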

How the data were processed

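Per the labels' protocols, Trizol RNA from frozen capsules (200 ng) was depleted of ribosomal RNA, made into directional libraries and read as 150-nt pairs on a DNBSEQ-G400. These name Trimmomatic 0.38 and human hg38 with Bowtie2 in RSEM, whereas the submitters' processing notes name Trimmomatic 0.36, RSEM, edgeR and mouse mm10. The statements conflict, and the symbols are those of mouse genes. For the annotation and the strand setting nothing is given in the sources used here.

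The deposited values are a signal, normalised read counts of the authors by gene. All values were whole multiples, within 0.01, of the value of 1 read, so whole reads were recovered; each listed gene has at least 8. Positions, lengths and GC content came from GENCODE M21 (GRCm38), which matched 15795 symbols (95.9%), and promoters from RefSeq (32851 windows of 250 bases; 4 of the 9 genes have one).

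Values plus 1 were taken to log2, genes under a mean of 0.5 were left out (15120 remained), and groups were compared with limma-trend (limma 3.58.1, R 4.3.3) with Benjamini-Hochberg adjustment over all genes at 0.05. Single genes were also compared by exact permutation over 70 assignments. Alternatives changed the pseudocount, filter, scaling, trend, covariates, libraries and test (edgeR 4.0.16, DESeq2 1.42.0). Named were all 9 genes, every other complement gene past the threshold, the gene of highest level per length in each role, and the 2 genes most like each called gene; others, such as C1qb, C1qc, C4a and Hc, were added after their values were seen. Values of 1 gene of the wider lists are not reported here. The members, lists and rules were chosen with earlier results of these data known. Replicate numbers were not used to pair libraries.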

Additional observations from a re-analysis of the deposited data

Results flagged for a closer look

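Of 38 groups of 4 libraries, from 19 complement genes, 6 held 1 library whose gap to the nearest of the others, divided by the range of the group, was above Dixon's 95% critical value. Chance flags about 1 in 20 groups of normally distributed values, a rate that does not hold for counts near 0. Where all but 1 library are at 0 the flag is fixed whatever the value, as for Cfi, C1s2 and Colec10 below. The number of flags is therefore not compared with that rate. C1qa was at 713 in naive replicate 4, against 328 to 380 in naive replicates 1 to 3, and Cfd was at 6572 there against 2775 to 3327; that library is also the shallowest. Cfi was at 1.05 in naive replicate 1 and at 0 in the other 3. C1s2 was at 0.151 in naive replicate 1, and Colec10 at 0.165 in cast replicate 1, each the value of 1 read, with the other 3 libraries at 0. C1qbp was at 26.1 in naive replicate 3, against 16.8 to 17.6 in the others.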

How the results depend on the processing

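Of the 9 complement genes 3 were called higher as reported; 5 were with DESeq2, and leaving out each library in turn gave 3 to 5. The count called lower was 0 under all 21 alternatives. In the wider lists 7 were called higher as reported, against 11 with DESeq2, 4 without cast replicates 1 and 2, and 3 (without naive replicate 2) to 10 (without naive replicate 4), with 4 without naive replicate 3 or cast replicate 2, when 1 library was left out. The count over all genes moved too, from 984 as reported to 1464 with DESeq2 and 374 without cast replicates 1 and 2. It was 569 without naive replicate 2 and 1382 without naive replicate 4. The 1 gene called lower there became 0 with a pseudocount of 5, with the stricter filter of 2.5, with the replicate block and without cast replicates 1 and 2, and ranged from 0 to 3 when 1 library was left out. Over all genes 826 were called lower as reported. In the same order of settings it was 826, 759, 589 and 343, and 406 to 1283 when 1 library was left out.

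Fold changes near 0 changed sign. C1qa was at 0.13 without cast replicates 1 and 2 and at 0.00097 with the GC trend removed, and ranged from -0.26 to 0.15 when 1 library was left out. C4b was at 0.054 with quantile normalisation, 0.11 without cast replicates 1 and 2 and 0.050 with the GC trend removed, and ranged from -0.25 to 0.19 when 1 library was left out. With the muscle covariate C1qa was at -0.65 and C4b at -0.74, each below those ranges, C7 was at 0.52 and Cfb at -0.24, and limma called 2631 genes higher and 1285 lower; the cause was not tested. C1s2 lost its call under 4 of the 16 alternatives in which it was tested, and fell under the filter in the rest of the 21. Vtn lost its call with the muscle covariate, without naive replicate 2 or 3, and without cast replicates 1 and 2.

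Same-numbered libraries had correlations of their deviations of 0.0797, 0.0353, -0.0571 and -0.0214. Pairs with unlike numbers ran from -0.234 to 0.234. These values show no pairing by number, but they cannot settle whether there was one. With the replicate block limma called 782 genes higher and 589 lower, against 984 and 826, and the same 3 of the 9 genes (adjusted p of 0.019 for C6, 0.003 for Cfi and 0.0216 for Masp1). Among the genes called, depth limits Cfi, C1s2 and Colec10 most, whose lower group held 7, 1 and 1 reads.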
